A study of Mus musculus with 10 samples.

Results

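The genes of prostaglandin and leukotriene synthesis, breakdown and reception were compared between Lkb1-deficient mouse lung squamous cell carcinoma (SCC) and wild-type (WT) mouse lung. The 10 members were the listed genes Ptgs1, Ptgs2, Ptges, Ptgis, Hpgd, Ptger2, Ptger4, Alox5, Alox5ap and Alox12, among 19096 genes with a paired probe. All 10 were found, on 15 of 41174 probes, and each was represented by its probe with the highest mean over all 10 arrays. The SCC group held 5 whole lung tumours of CCSPiCreLkb1f/f mice, in which a Cre named for club cell secretory protein (CCSP, the product of Scgb1a1) removes floxed Lkb1 in the airway epithelium. The WT group held 5 whole lungs of mice with the same floxed alleles and no Cre in their label (Lkb1f/f). The labels give the strain of all mice as B6.129, and all were 13 months old and received no treatment. The labels do not say which samples came from separate animals, so p-values measure the spread between these samples. RNA of each sample was labelled with Cy3 and hybridised to 1 array.

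Prostanoids and leukotrienes are lipid signals made from arachidonic acid, which phospholipases A2 release from membranes. The cyclooxygenases Ptgs1 and Ptgs2 turn it into prostaglandin H2, from which terminal synthases make prostaglandin E2 (Ptges), prostacyclin (Ptgis) and other products. Hpgd, the 15-hydroxyprostaglandin dehydrogenase, oxidises and so inactivates prostaglandin E2, and Ptger2 and Ptger4 are receptors for it. Alox5, with its membrane partner Alox5ap, opens the leukotriene branch, and Alox12 is the platelet-type 12-lipoxygenase. In lung, Hpgd clears circulating prostaglandins and prostacyclin relaxes vessels.

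Levels below are log2 processed signals after quantile normalization, and a difference is the SCC mean minus the WT mean on that log2 scale, with its standard error (SE). A probe was called where limma's p, adjusted over all 30374 tested probes, was below 0.05 and the difference was at least 2-fold. By this rule 22.9% of tested probes were called, 9.92% higher and 13.0% lower in SCC. That balance depended on the scaling, with 3014 probes higher and 3940 lower here, and 3504 higher and 3080 lower when each array was scaled to its 75th percentile. An adjusted p below 0.05 alone held for 49.0% of them, and the groups did not overlap for 37.4%. Of the 10 members, 3 were called, Ptges higher and Ptgis and Hpgd lower, a share not far from the background. With adjusted p alone 5 of 10 passed, since Ptger2 and Alox12 were also lower, and the groups of these 5 did not overlap. The median difference of the 10 members was -0.30, beside -0.09 over all tested probes. All 10 members were well above background on all 10 arrays.

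A few facts of the arrays touch these values. SCC replicate 5 had 90.2% of probes well above background, against 74.5% or less on the others. SCC replicate 2 differed from the other tumours in many lists of cell type markers. Its squamous and basal cell list averaged 10.87, while the other 4 tumours averaged 14.02 to 14.35 and the WT lungs 4.92 to 5.41. All 9 tested markers of that list were called higher in SCC, with Krt6a and Dsg3 not well above background on any WT array. The tested alveolar type 2 markers were well above background on all arrays of both groups. The arrays came on 3 slides, the first with WT lungs only (replicates 1 to 4) and the third with tumours only (replicates 4 and 5). Slide 2 carried the remaining WT lung, replicate 5, beside tumours 1 to 3. When slide enters the fit as a fixed block, the difference comes from slide 2 alone, 1 WT array against 3 SCC arrays. Slide and group are therefore largely confounded, and the within-slide value is given beside the members and most other genes named. No probe was paired with Stk11, the Lkb1 gene, so it is not analysed here.

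**Figure D1:**
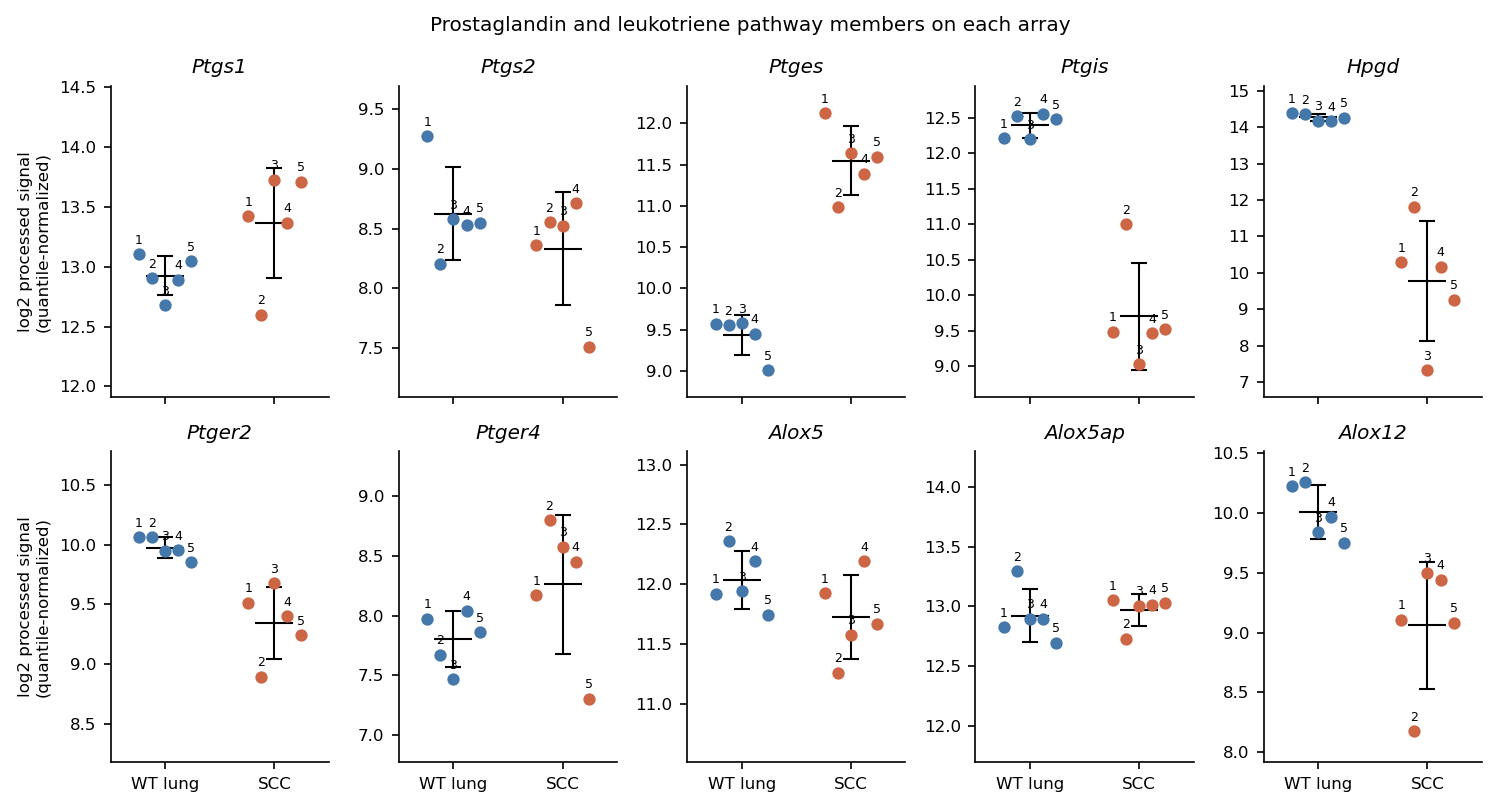
Level of each of the 10 members on each array (y axes, log2 processed signal, with a separate range for each gene) in WT lung and SCC. Points are arrays numbered by replicate, and the bar with whiskers is the mean and SD of 5 arrays. Ptges lies higher and Ptgis, Hpgd, Ptger2 and Alox12 lie lower in every SCC array than in every WT array, while the groups of the other 5 members overlap.

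Neither cyclooxygenase passed the test. Ptgs2, the inducible enzyme, read 9.27, 8.21, 8.58, 8.53 and 8.55 on WT replicates 1 to 5 and 8.36, 8.55, 8.52, 8.71 and 7.51 on SCC replicates 1 to 5. The groups overlapped, and SCC replicate 5 was the lowest of all arrays and WT replicate 1 the highest. The difference was -0.29 ± 0.26 (SE, n = 5 per group), with a limma adjusted p of 0.364 and an exact permutation p of 0.389. This probe was spotted 10 times per array, and the SD among spots of 1 array was 0.035 to 0.20, less than the SD of 0.39 among WT arrays and 0.48 among SCC arrays. Without SCC replicate 5 the difference was -0.089, and without WT replicate 1 it was -0.13. A second Ptgs2 probe gave a difference of -0.33 (limma adjusted p = 0.281). Within slide 2 the difference was -0.07.

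Ptgs1, the constitutive enzyme, read 13.10, 12.90, 12.68, 12.89 and 13.05 in WT. The SCC arrays read 13.42, 12.60, 13.73, 13.37 and 13.71, so 4 tumours lay above every WT lung and replicate 2 below all of them. The difference was 0.44 ± 0.21 (SE), with a limma adjusted p of 0.105 and an exact permutation p of 0.0794. Without SCC replicate 2 it was 0.63 (limma adjusted p = 0.00172). Within slide 2 it was 0.20.

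Ptges, the inducible prostaglandin E2 synthase, was higher in SCC. It read 9.57, 9.55, 9.58, 9.45 and 9.01 in WT and 12.12, 10.98, 11.64, 11.39 and 11.59 in SCC. Every tumour lay above every WT lung, with SCC replicate 2 the lowest tumour and WT replicate 5 the lowest WT array. The difference was 2.11 ± 0.20 (SE), or 4.32-fold, with a limma adjusted p of 4.06e-05 and an exact permutation p of 0.00794, the smallest that 5 arrays against 5 allow. Under the slide block, which rests on WT replicate 5 as the only WT array, it was 2.57. Without WT replicate 5 it was 2.01.

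Ptgis, the prostacyclin synthase, was lower in SCC. It read 12.21, 12.52, 12.20, 12.56 and 12.48 in WT and 9.49, 11.00, 9.03, 9.47 and 9.52 in SCC. The tumours lay below every WT lung, and SCC replicate 2 stood above the other tumours. The difference was -2.69 ± 0.32 (SE), a 6.45-fold lower signal, with a limma adjusted p of 0.000124 and an exact permutation p of 0.00794. Under the slide block it was -2.64 (limma adjusted p = 0.0351), and without SCC replicate 2 it was -3.02.

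In the same arrays, 7 of 8 endothelial markers and 3 of 7 smooth muscle and pericyte markers were called lower, and 1 of the latter was called higher. The endothelial list averaged 11.28 to 12.23 in SCC and 13.51 to 13.70 in WT, with all 8 markers well above background on every array and SCC replicate 2 the highest tumour, as for Ptgis. The smooth muscle and pericyte list averaged 10.89 to 11.22 in SCC and 11.20 to 11.70 in WT, with all 7 well above background. Of the fibroblast markers, all 7 well above background, 4 were called lower and 2 were higher by limma's adjusted p alone, and the list averaged 11.99 to 13.14 in SCC, lowest on replicate 3 and highest on replicate 2 as Ptgis was, and 13.43 to 13.62 in WT. Endothelial and smooth muscle cells are known sources of prostacyclin, and the part of these 3 cell types in the Ptgis difference was not tested. In these bulk samples, fewer cells of a type and less RNA per cell cannot be told apart.

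Hpgd, which breaks prostaglandins down, showed the largest difference of the 10 members. It read 14.40, 14.36, 14.18, 14.18 and 14.26 in WT and 10.30, 11.82, 7.32, 10.17 and 9.26 in SCC. The WT arrays thus lay within a narrow band, and the tumours spread widely below it, from replicate 3 at the bottom to replicate 2 at the top. The difference was -4.50 ± 0.67 (SE), a 22.7-fold lower signal, with a limma adjusted p of 0.00047 and an exact permutation p of 0.00794. A second Hpgd probe gave -4.68 ± 0.68 (SE; limma adjusted p = 0.000422). Without SCC replicate 3 the difference was -3.89. The slide block left the size at -4.45 with a limma adjusted p of 0.0716, so the call did not hold in that fit.

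The SD of Hpgd was 1.65 among the tumours and 0.10 among WT arrays. Markers of lung epithelium moved in the same samples. The club and ciliated cell list, all 6 well above background, averaged 11.77 to 13.67 in SCC and 13.32 to 14.40 in WT, with 2 of 6 called lower. The order of the tumours differed among these 6 markers, which were looked at singly after their values were seen. Scgb1a1, Scgb3a2 and Cyp2f2, the club cell markers, were lowest on replicate 3 and highest on replicate 2, as Hpgd was. Foxj1, Dnah5 and Ccdc39, the ciliated cell markers, were highest on replicate 4, as the list mean was, and the last 2 were lowest on replicate 5. Of the alveolar type 1 list, 4 of 5 were called lower, and these 4 averaged 12.32 to 13.00 in SCC and 14.34 to 14.50 in WT, all well above background. The fifth, Aqp5, without a value on WT replicate 1 and left out of that mean for it, was higher by limma's adjusted p alone (difference 0.64, adjusted p = 0.0233). Of the alveolar type 2 list 0 of 7 were called (15.03 to 15.61 in SCC, 15.68 to 15.82 in WT, all well above background), although 4 of these 7 were lower by limma's adjusted p alone. Sftpc read 18.80 on all WT arrays and SCC replicates 1 and 2, the same normalized rank, so differences among them could not show. Of the endothelial markers, 7 of 8 were called lower. The endothelial (11.28), fibroblast (11.99) and alveolar type 2 (15.03) lists were lowest on replicate 3, as Hpgd was. They were highest on replicate 2 (12.23, 13.14 and 15.61). The squamous and basal cell, neutrophil and macrophage lists were instead lowest on replicate 2. These orders were compared after the values were seen. The part of all these cell types in the Hpgd difference was not tested.

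Ptger2, a receptor for prostaglandin E2, read 10.06, 10.06, 9.95, 9.95 and 9.85 in WT and 9.52, 8.90, 9.68, 9.40 and 9.24 in SCC. All tumours lay below all WT lungs, by a small margin for replicate 3, and replicate 2 was the lowest. The difference of -0.63 ± 0.14 (SE) passed limma's test (adjusted p = 0.00487, exact permutation p = 0.00794) without reaching 2-fold. Within slide 2 it was -0.49, and the block fit gave a limma adjusted p of 0.285.

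Ptger4, another receptor for prostaglandin E2, read 7.97, 7.67, 7.47, 8.04 and 7.86 in WT and 8.17, 8.80, 8.58, 8.45 and 7.31 in SCC. Thus 4 tumours lay above every WT lung and replicate 5 below all of them. The difference was 0.46 ± 0.26 (SE), with a limma adjusted p of 0.171 and an exact permutation p of 0.143. It was 0.70 (limma adjusted p = 0.00574) without SCC replicate 5, the array with the high share of probes above background. It was 0.63 (limma adjusted p = 0.0113) when arrays were scaled to their 75th percentile. That scaling moved the median difference of all tested probes from -0.09 to 0.03. Within slide 2 the Ptger4 difference was 0.66.

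Neither gene of the first leukotriene step passed the test. Alox5 read 11.92, 12.36, 11.94, 12.19 and 11.74 in WT and 11.92, 11.26, 11.58, 12.19 and 11.67 in SCC. SCC replicates 2, 3 and 5 lay below every WT lung, and the other 2 tumours lay within the WT range. The Alox5 difference was -0.31 ± 0.19 (SE), which passed neither limma (adjusted p = 0.193) nor the exact permutation test (p = 0.151). The other 2 Alox5 probes gave -0.31 and -0.17, and slide 2 alone gave -0.16. Without SCC replicate 2 the difference was -0.19. Alox5ap read 12.83, 13.30, 12.90, 12.90 and 12.70 in WT and 13.05, 12.73, 13.01, 13.01 and 13.03 in SCC. Its difference of 0.04 ± 0.12 (SE) passed neither limma (adjusted p = 0.791) nor the exact permutation test (p = 0.722), and it was 0.23 within slide 2. Alox5 and Alox5ap are known products of myeloid cells. Of the neutrophil markers, 5 of 9 tested were called higher, and the list averaged 10.03 on SCC replicate 2, 11.97 to 12.13 on the other tumours and 9.20 to 10.14 in WT. One marker, Ltf, carried much of that rise, with 18.10 to 18.29 on the tumours and 8.26 to 9.81 in WT. Without Ltf, again a choice made after seeing the data, the list averaged 8.997 on SCC replicate 2, 11.20 to 11.39 on the other tumours and 9.12 to 10.21 in WT. Ngp was well above background on 1 SCC and 2 WT arrays and was not tested, and Camp was on 4 and 2. Of the macrophage markers 3 of 8 were called higher, while by limma's adjusted p alone Mrc1 (0.65) was higher and Marco (-0.75) and Csf1r (-0.50) were lower, and the list averaged 12.03 to 13.58 in SCC and 12.17 to 12.68 in WT, all 8 well above background on every array.

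Alox12 was lower in SCC by limma's adjusted p and fell short of 2-fold. It read 10.22, 10.26, 9.84, 9.97 and 9.75 in WT and 9.11, 8.17, 9.50, 9.44 and 9.08 in SCC. The tumours lay below every WT lung, and replicate 2 was the lowest. The difference was -0.95 ± 0.24 (SE), with a limma adjusted p of 0.0094 and an exact permutation p of 0.00794, and a second probe gave -0.93. Leaving out WT replicate 5, SCC replicate 3 or SCC replicate 4 took it just past 2-fold, to -1.01, -1.06 and -1.04, and leaving out each of the other arrays kept it short of that, down to -0.73 without SCC replicate 2. Within slide 2 it was -0.83, and the block fit gave a limma adjusted p of 0.264. The platelet and megakaryocyte list averaged 7.70 to 8.85 in SCC and 8.55 to 9.38 in WT, with 2 of 7 called lower and 1, Ppbp, called higher. Ppbp read 10.67 on SCC replicate 2 and 17.21 to 17.46 on the other tumours. Without Ppbp, a choice made after seeing the data, the list averaged 6.85 to 7.42 in SCC, lowest on replicate 3, and 8.15 to 8.91 in WT, without overlap. Its markers Gp9 and Gp6 were well above background on 4 and 3 SCC arrays. The part of platelets in the Alox12 difference was not tested.

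**Figure D2:**
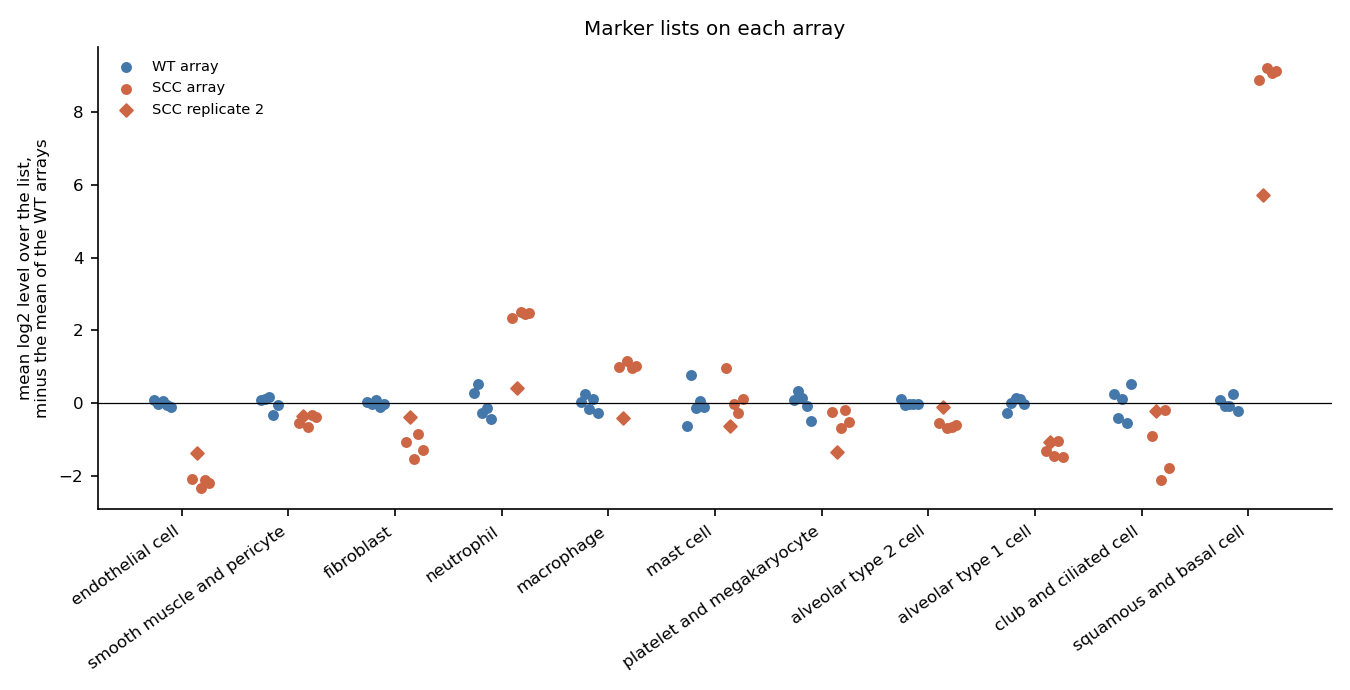
Mean log2 level over each list of cell type markers on each array, minus the mean of the 5 WT arrays (y axis), by list (x axis), with SCC replicate 2 drawn as a diamond. The squamous and basal cell list lies above WT on all SCC arrays, least on replicate 2, and the endothelial list lies below WT on all SCC arrays, least on replicate 2. The alveolar type 1 mean of WT replicate 1 lacks Aqp5, which had no value there.

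Promoter sequence was examined for 3 members, since Ptges and Hpgd make and break prostaglandin E2 and were called in opposite directions, while Ptgs2 was not called. Shown are the 250 bases before the gene start from RefSeq (build GRCm38.p6), on the gene's own strand from 5′ to 3′, with GC boxes (GGGCGG on either strand) in capitals. Ptges is at chr2:30903298-30903547 on the minus strand, Hpgd at chr8:56294302-56294551 on the plus strand and Ptgs2 at chr1:150099781-150100030 on the plus strand.
Ptges: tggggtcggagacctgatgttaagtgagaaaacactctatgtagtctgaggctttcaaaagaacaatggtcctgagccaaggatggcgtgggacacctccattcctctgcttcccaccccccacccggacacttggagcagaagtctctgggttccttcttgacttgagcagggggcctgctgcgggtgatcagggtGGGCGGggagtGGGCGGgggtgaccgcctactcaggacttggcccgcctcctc
Hpgd: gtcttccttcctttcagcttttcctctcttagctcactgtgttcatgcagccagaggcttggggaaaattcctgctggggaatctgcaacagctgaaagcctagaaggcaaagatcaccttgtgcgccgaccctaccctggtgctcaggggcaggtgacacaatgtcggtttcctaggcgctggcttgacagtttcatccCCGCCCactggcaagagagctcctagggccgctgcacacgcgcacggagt
Ptgs2: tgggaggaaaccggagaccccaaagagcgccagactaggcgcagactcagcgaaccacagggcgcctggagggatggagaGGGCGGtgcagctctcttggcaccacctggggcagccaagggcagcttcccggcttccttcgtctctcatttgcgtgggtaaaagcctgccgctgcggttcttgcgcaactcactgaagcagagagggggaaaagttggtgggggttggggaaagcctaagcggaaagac
Ptges holds 2 GC boxes, both on the gene's strand, and Hpgd and Ptgs2 hold 1 each, in Hpgd on the other strand. Of the 8 members with a promoter entry, 6 held a GC box, a motif present in 32.7% of 32851 such windows. The AP-1 motif TGANTCA, searched on both strands, was in none of the 8 windows and in 6.75% of all. These matches describe the letters of the windows and carry no measurement.

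The rest of the pathway was read from a list of 50 further genes, of which 47 had a paired probe and 45 were tested. Of these, 12 were called higher and 5 lower in SCC, beside 24.9% of genes called when each of the 15586 tested genes is represented by its brightest probe. With limma's adjusted p alone 22 were higher and 8 lower, and 15 did not pass. The median difference of the 45 genes was 0.48. In the fit with the slide block, 4 of the 17 called genes held (Pla2g1b, Abcc4, Ptgr1 and Mgst2) and Hpgds was called too, whereas the other 13 kept their direction with limma adjusted p of 0.0699 to 0.434. No probe was paired with Pla2g4d, Cbr1 or Ptger1, and Pla2g10 and Ptgdr were too dim to be tested.

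**Figure D3:**
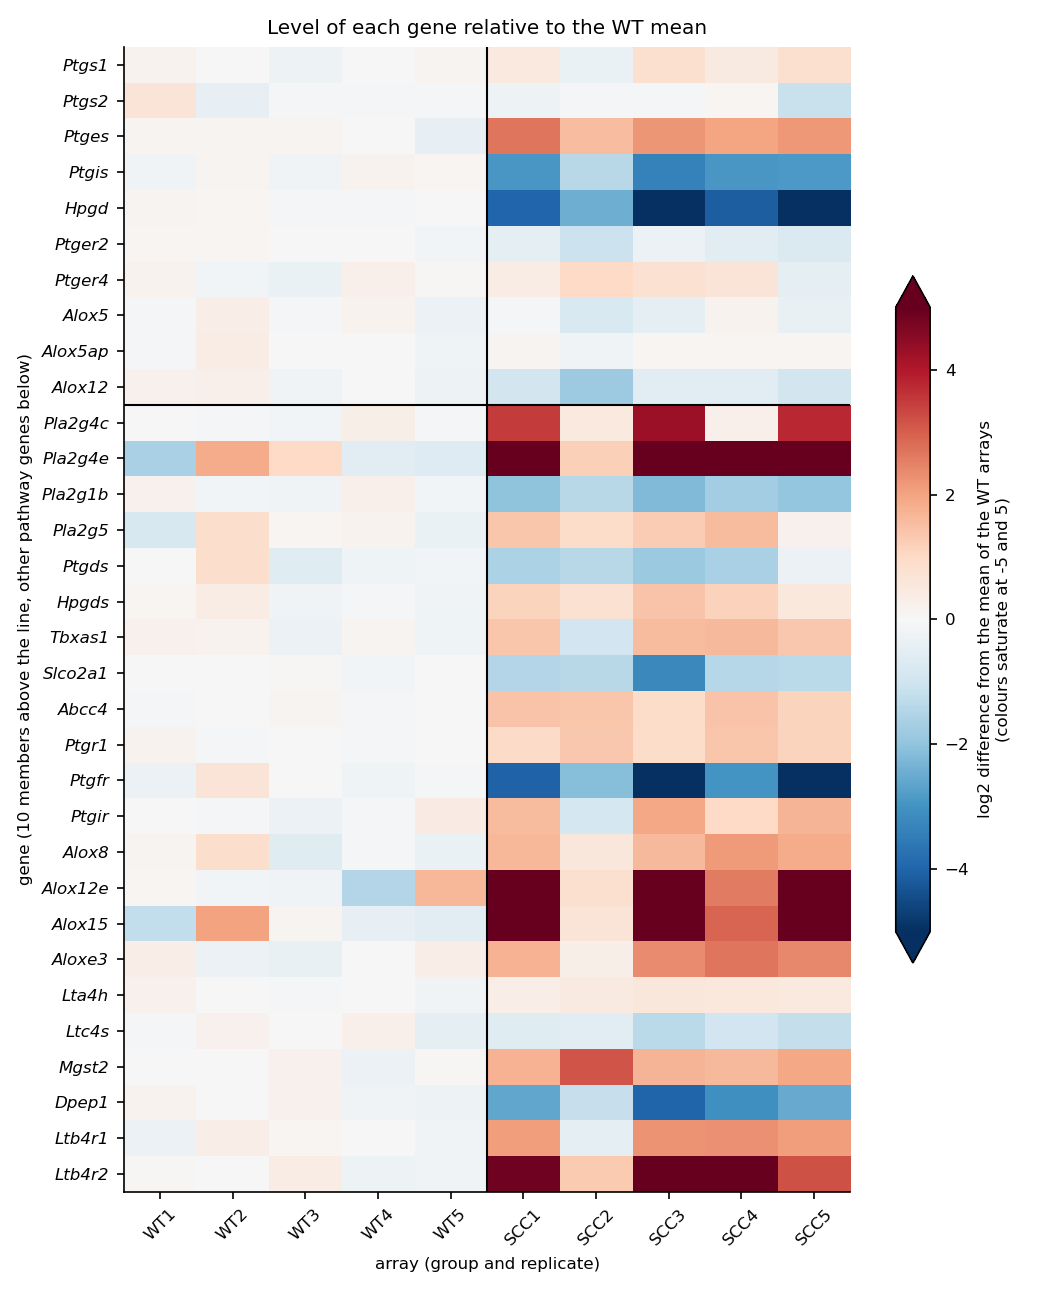
Log2 level of each member (above the horizontal line) and each named pathway gene (below it) on each array, minus the mean of the 5 WT arrays, in colour that saturates at -5 and 5. Ptges, Abcc4, Ptgr1 and Mgst2 are higher and Ptgis, Hpgd, Slco2a1 and Dpep1 lower on all 5 SCC arrays, whereas Tbxas1, Ptgir and Ltb4r1 are lower than the WT mean on SCC replicate 2 alone among the tumours.

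Among the listed phospholipases A2, 3 of 12 tested were called higher and 1 lower. Release of arachidonic acid by their products was not measured. Pla2g4e, a cytosolic form, read 1.60, 5.08, 4.21, 2.69 and 2.60 in WT, where it was well above background on 2 arrays, and 9.59, 4.43, 10.06, 10.35 and 9.78 in SCC. Replicate 2 lay within the WT range and the other tumours far above it. The difference was 5.60 ± 1.15 (SE; limma adjusted p = 0.00301) and 6.71 without SCC replicate 2. Pla2g4c differed by 2.46 (limma adjusted p = 0.0264), with SCC replicate 4 at 5.48, inside the WT range of 5.11 to 5.53, and replicate 2 at 5.75, just above it. Pla2g5 differed by 1.07 (limma adjusted p = 0.0248). Neither call was stable: Pla2g4c missed 0.05 without WT replicate 2, 3 or 5 or SCC replicate 1 or 3 (limma adjusted p = 0.0515 to 0.0617), and Pla2g5 without WT replicate 1 or 5 or SCC replicate 1, 3 or 4 (0.0546 to 0.0585). Pla2g1b, a secreted form, was lower on every tumour than on every WT lung (difference -1.85, limma adjusted p = 2.78e-05). Within slide 2 the differences were 5.43 for Pla2g4e, 2.86 for Pla2g4c, 1.54 for Pla2g5 and -1.72 for Pla2g1b. With normexp background correction in place of the processed signal, Pla2g4e differed by 2.78, Pla2g4c by 1.39 and Pla2g5 by 0.54, which ended the Pla2g5 call. Pla2g10 was not well above background on any WT array and was on 3 SCC arrays, with replicate 2 at 11.39.

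Of the other prostanoid synthases, 1 of 6 was called. Ptgds, a prostaglandin D2 synthase, was lower by limma (difference -1.35, adjusted p = 0.00873), with SCC replicate 5 at 6.35 inside the WT range of 6.04 to 7.53. Under 75th percentile scaling its difference was -1.18 (limma adjusted p = 0.108), and under normexp it was -0.50, short of 2-fold. Hpgds, the other prostaglandin D2 synthase, read 7.03 to 7.92 in SCC and 6.30 to 6.85 in WT, without overlap. Its difference of 1.00 (limma adjusted p = 0.00147) was a 1.999-fold change, just short of 2-fold. Tbxas1, the thromboxane synthase, read 12.55 to 12.80 on 4 tumours, 10.24 on replicate 2 and 10.87 to 11.38 in WT. Its difference of 1.00 did not pass (limma adjusted p = 0.096), and it was 1.49 (adjusted p = 2e-05) without SCC replicate 2. Within slide 2 Ptgds differed by -1.49, Hpgds by 1.28 and Tbxas1 by 0.89.

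Transport and breakdown genes moved in both directions, with 2 of 4 called higher and 1 lower. Slco2a1, the prostaglandin uptake transporter, read 15.02 to 15.24 in WT and 13.71, 13.79, 11.96, 13.76 and 13.81 in SCC, lowest on replicate 3 as Hpgd was. The difference was -1.76 ± 0.33 (SE; limma adjusted p = 0.00192). Abcc4, an exporter of prostaglandin E2, was higher by 1.26 ± 0.12 (SE; limma adjusted p = 3.16e-05) and in a second probe by 1.48. Ptgr1, a reductase of prostaglandins that also inactivates leukotriene B4, was higher by 1.14 ± 0.12 (SE; limma adjusted p = 5.43e-05). The groups of Abcc4 and of Ptgr1 did not overlap. The 2 probes of Ptgr2, named after its values were seen, differed in sign (0.14 and -0.60). In the block fit, Abcc4 gave 1.23 (limma adjusted p = 0.0186), Ptgr1 1.04 (0.0262) and Slco2a1 -2.04 (0.0699).

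Of the other prostanoid receptors 1 of 5 was called. Ptgfr, the receptor for prostaglandin F2 alpha, read 8.83, 9.79, 9.12, 8.91 and 9.02 in WT and 5.10, 7.01, 3.08, 6.13 and 2.06 in SCC, where 3 arrays were well above background. The difference was -4.46 ± 0.85 (SE; limma adjusted p = 0.00201), and -3.80 without SCC replicate 5, the lowest. It was -2.27 under normexp and -3.96 within slide 2. Ptgir, the prostacyclin receptor, read 10.78 to 11.72 on 4 tumours, 8.92 on replicate 2 and 9.48 to 10.20 in WT. Its difference of 1.08 did not pass (limma adjusted p = 0.0863), and it was 1.56 (adjusted p = 0.000208) without SCC replicate 2 and 0.46 within slide 2. A second Ptgir probe, well above background on all arrays, gave 0.19 (limma adjusted p = 0.574).

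All 5 other lipoxygenases were higher by limma's adjusted p, and 4 were called. Alox12e, an epidermal 12-lipoxygenase, differed by 4.50 ± 1.16 (SE; limma adjusted p = 0.00963). Alox15 differed by 4.47 ± 1.16 (SE; adjusted p = 0.0103), and it was well above background on 1 WT array. Aloxe3 and Alox8, both known from skin, differed by 1.90 (adjusted p = 0.00432) and 1.56 (adjusted p = 0.00369). Alox8 was well above background on 3 WT arrays, and under normexp its difference was 0.42, which ended the call, while that of Alox15 was 2.26. Within slide 2 the differences were 2.85 for Alox12e, 4.93 for Alox15, 1.14 for Aloxe3 and 1.60 for Alox8. SCC replicate 2 read within the WT range for these 4, for example 9.51 for Alox12e against 7.24 to 10.37 in WT and 11.32 to 15.23 on the other tumours. The groups of all 5 overlapped, and without replicate 2 Alox12e and Alox15 differed by 5.42 and 5.43. The probes of Alox12b, chosen for mention after its values were seen, disagreed in size. The one brighter over all arrays differed by 0.94. The mean of the other, not well above background on any WT array, was at least 35.8-fold higher in SCC. On that probe SCC replicate 2 read 2.70, within the WT range of 2.16 to 3.19, and the other tumours read 10.33 to 11.27. The squamous and basal cell list, given above, was also lowest among the tumours on replicate 2, as were the neutrophil and macrophage lists. The part of these cell types in these differences was not tested.

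In leukotriene synthesis and breakdown, 1 of 9 was called higher and 1 lower. Mgst2, a glutathione transferase able to form leukotriene C4, read 11.98 to 12.49 in WT and 13.99, 15.40, 13.98, 13.90 and 14.21 in SCC. All tumours exceeded all WT lungs, with replicate 2 the highest. The difference was 2.03 ± 0.27 (SE; limma adjusted p = 0.000252), and 2.12 in the block fit (adjusted p = 0.0384). Ltc4s, the dedicated leukotriene C4 synthase, was lower without overlap and short of 2-fold (-0.92, limma adjusted p = 0.00381). Lta4h, which forms leukotriene B4, was higher without overlap and short of 2-fold (0.48, limma adjusted p = 0.0023). Neither passed in the block fit, where Ltc4s differed by -0.37 (limma adjusted p = 0.494) and Lta4h by 0.63 (0.0528). Mast cells are a known source of leukotriene C4 and prostaglandin D2. All 3 tested mast cell markers were called, Cpa3 (-2.51, well above background on 2 SCC and 5 WT arrays) and Cma1 (-1.70) lower and Mcpt4 (4.33) higher, and they averaged 6.43 to 8.02 in SCC and 6.42 to 7.82 in WT. Tpsb2 and Ms4a2 were too dim to be tested, no probe was paired with Tpsab1 or Kit, and the part of mast cells in the Ltc4s, Hpgds and Ptgds values was not tested. Dpep1, a dipeptidase that converts leukotriene D4, was lower by limma on every tumour (-2.68 ± 0.43, SE; adjusted p = 0.000723) and differed by -2.32 within slide 2.

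Of the 4 leukotriene receptors, both leukotriene B4 receptors were called higher. The 2 cysteinyl leukotriene receptors, named after their values were seen, were not called: Cysltr1 was lower by limma's adjusted p alone (difference -0.83, adjusted p = 0.00443; -0.37 and 0.0947 in a second probe), and Cysltr2 differed by -0.61 (adjusted p = 0.319). Ltb4r1, the high-affinity receptor of neutrophils and other leukocytes, read 9.49, 10.11, 9.89, 9.82 and 9.60 in WT and 11.88, 9.35, 12.03, 12.05 and 11.87 in SCC. Replicate 2 lay below every WT lung and the other tumours above all of them. The neutrophil, macrophage and squamous and basal cell lists also stood lowest among tumours on replicate 2, and their part in the difference was not tested. The difference was 1.66 ± 0.49 (SE; limma adjusted p = 0.0184), and 2.18 without SCC replicate 2. Ltb4r2, the low-affinity receptor, was not well above background on any WT array and was on 4 SCC arrays. Its mean was at least 5.37-fold higher in SCC, against the lowest signal counted as above background (limma adjusted p = 0.00125). Leaving out single arrays gave log2 differences of 3.60 to 4.57, which rest on those dim WT signals. Under normexp the difference fell just short of 2-fold. Within slide 2 Ltb4r2 read 2.37 on the WT array and 7.40, 3.84 and 7.72 on SCC replicates 1 to 3. As that WT signal was not well above background, the size of the gap there cannot be given. Neither call held in the block fit (limma adjusted p = 0.311 for Ltb4r1, with a difference of 1.49, and 0.104 for Ltb4r2).

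**Figure D4:**
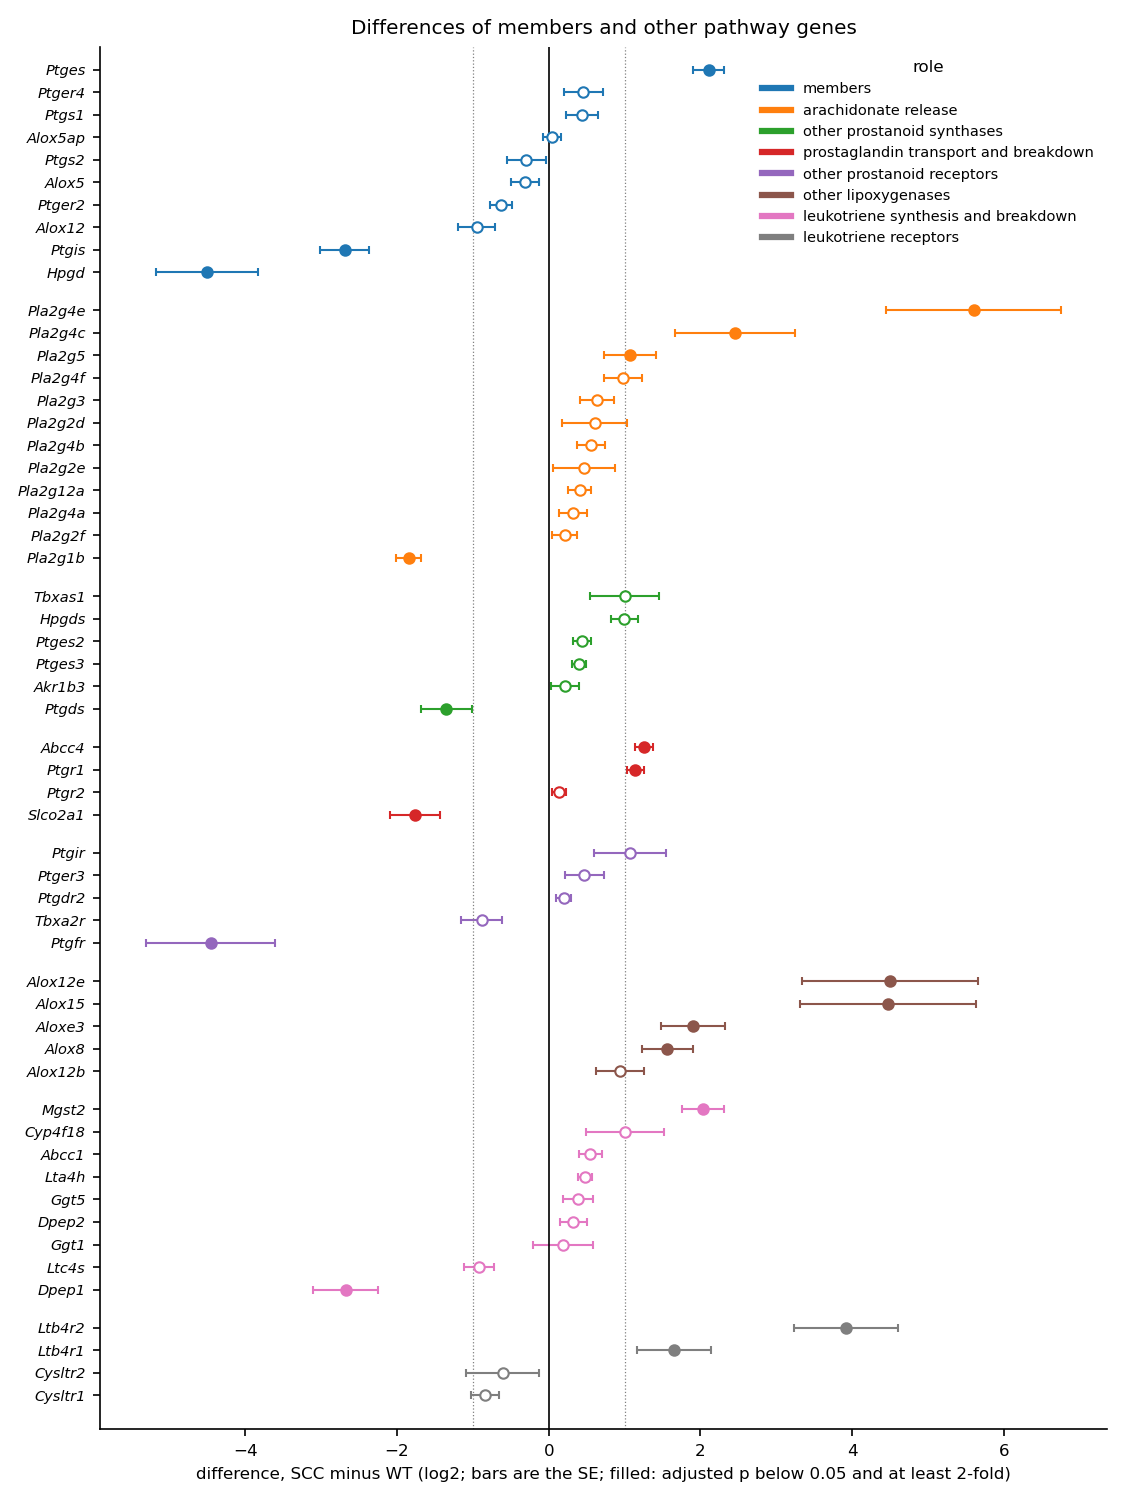
Difference between SCC and WT (x axis, log2) for the 10 members and the 45 other tested pathway genes, grouped and coloured by role, with bars of 1 SE. Filled points were called, and dotted lines mark a 2-fold difference. Hpgd, well above background on all arrays, lies at -4.50. The values of Ptgfr (-4.46), Pla2g4e (5.60), Alox15 (4.47), Alox8 (1.56) and Ltb4r2 rest in part on arrays where they were not well above background.

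**Figure D5:**
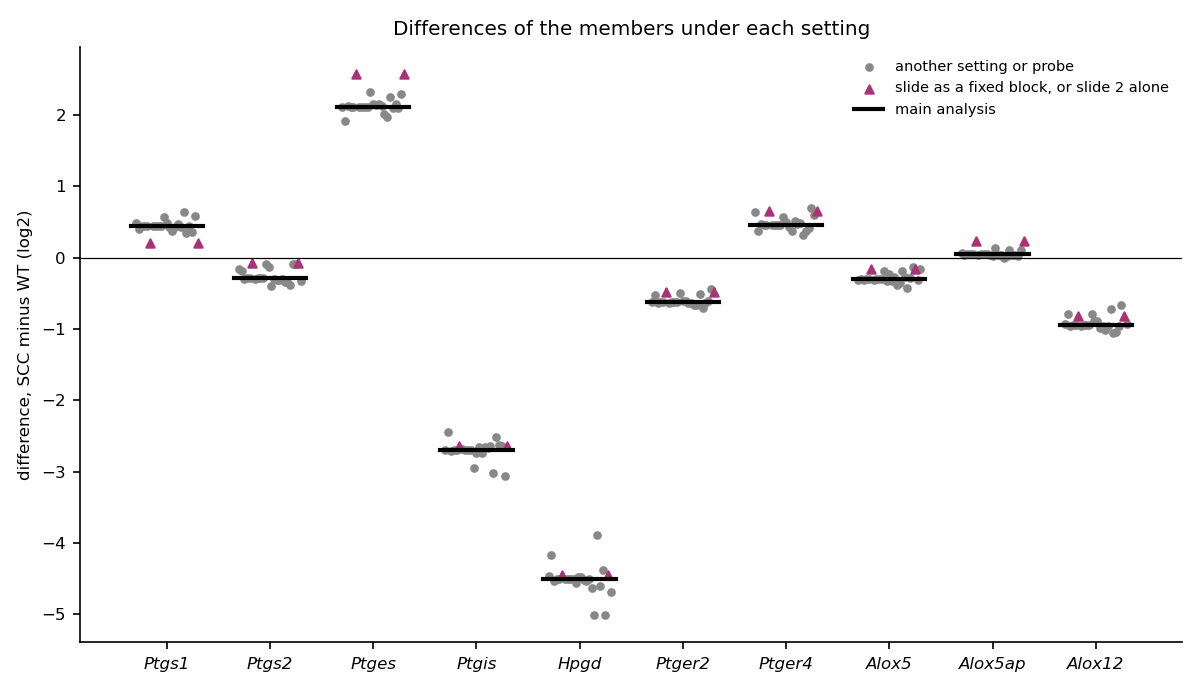
Difference between SCC and WT (y axis, log2) for each member in the main analysis (line) and under each alternative setting or other probe (points), with the values that rest on slide 2 as triangles. Ptges stays between 1.91 and 2.57, Ptgis between -3.06 and -2.45 and Hpgd between -5.01 and -3.89, and the Alox5ap values run from -0.013 to 0.23.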

How the data were processed

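The authors read the scanned 1-colour arrays with Agilent Feature Extraction (version 12 per the labels), and deposited for each spot a processed intensity after background subtraction. The authors also deposited a table of log2 values, which correlated at 0.9999 or more over probes, on each array, with processed intensities normalized here by quantiles, and served as an alternative. Quantile normalization and log2 follow the study's methods.

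Control and outlier-flagged spots were left out, and spots of a probe were averaged. Probes well above background on at least 4 of 5 arrays of a group were tested (30374) by a two-sided moderated fit without covariates (lmFit, eBayes; limma 3.58.1, R 4.3.3) with Benjamini-Hochberg adjustment, and called at adjusted p below 0.05 and 2-fold. In place of the methods' one-way analysis of variance, limma was used. Single values also had an exact two-sided permutation test. The fit was tested on simulated data. Of the probes, 68.5% were paired with 1 RefSeq symbol (GRCm38.p6). The number of arrays, 5 per group, limits the precision.

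A fold for a probe above background on no array of a group is a lower bound, against the higher of each array's lowest above-background signal and the probe's own. Alternatives changed the scaling, background correction, filter, slide, replicate block, array weights, test and probe, and left out arrays. The members and lists were chosen with earlier results of these data known. Named were all members, in each role at most the 4 called pathway genes with the largest difference, and Tbxas1, Ltc4s, Lta4h, Hpgds and Ptgir.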

Additional observations from a re-analysis of the deposited data

Results flagged for a closer look

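A gap test (Dixon's, critical value 0.71 for 5 arrays) asked of each member, named pathway gene and marker list whether the highest or lowest array of a group stood far from the nearest other, as a share of the group's range. It flagged 15 of 86 groups. Chance flags about 1 in 20 independent groups at this critical value. These groups share the same 10 arrays and are not independent, so the count cannot be set against that rate. Of the 15, 11 were SCC replicate 2. That array was the lowest tumour for Alox5ap (gap share 0.86; 12.73, next 13.01), Pla2g4e (0.873), Tbxas1 (0.901), Ltb4r1 (0.933) and the neutrophil (0.921), macrophage (0.879) and squamous and basal cell (0.905) lists. It was the highest tumour for Ptgis (0.75; 11.00, next 9.52), Mgst2 (0.789) and the endothelial (0.74) and alveolar type 2 (0.737) lists.

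The other gaps were Slco2a1 lowest on SCC replicate 3 (0.948; 11.96, next 13.71), Ptgds highest on SCC replicate 5 (0.711; 6.35, next 5.24), Ptges lowest on WT replicate 5 (0.772; 9.01, next 9.45) and the alveolar type 2 list highest on WT replicate 1 (0.869).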

How the results depend on the processing

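Over the 10 members, 219 of 235 alternative values kept their direction and their side of 0.05, 8 lost the adjusted p, 7 gained it and 1 changed sign, and over the 22 named pathway genes 452 of 504 did, 46 lost it and 6 gained it. Several settings left the differences the same or nearly so, and genes that passed in neither fit count as kept, so these tallies are no measure of robustness. Leaving out single arrays gave 6385 to 8135 called probes, 3 to 4 members and 15 to 25 pathway genes, and gave Alox5ap differences of -0.013 (without WT replicate 5) to 0.14. Pathway calls reached 25 without SCC replicate 2 and 26 without SCC replicates 2 and 5 together. Called probes fell to 3969 with normexp on the median signals, and to 2989 with slide as a fixed block, where 2 members and 5 pathway genes were called. Adjusted p alone gave 14878 probes, 5 members and 30 pathway genes. On slide 2 alone, chosen after seeing the data, limma called 0 probes, 0 members and 0 pathway genes (5835, 2 and 9 at an unadjusted p below 0.05), with 1 WT array and 3 SCC arrays. Same-numbered arrays did not deviate together (correlations of -0.10 to 0.01, none best with its own number), and the replicate block gave 6571 probes, 3 members and 17 pathway genes. A t-test, which for 2 groups equals the methods' one-way analysis of variance, was also run. With 2-fold required here, it gave 7074 probes at an unadjusted p below 0.05 and 6525 after Benjamini-Hochberg. Sizes of dim genes depended on the background correction: with normexp 13 of the 17 pathway genes were called, and Pla2g5, Ptgds and Alox8 (differences of 0.54, -0.50 and 0.42) and Ltb4r2 fell short of 2-fold while passing limma's adjusted p of 0.05.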
